A study of Mus musculus with 9 samples.

Results

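The founder factors of mesoderm and endoderm were followed in embryoid bodies, clusters of embryonic stem cells that differentiate while floating. The set holds 10 genes of the 22322 listed, selected by gene symbol, with earlier results of these data known: the mesoderm factors T, Eomes, Mixl1 and Hand1, the endoderm factors Foxa2 and Sox17, and the extraembryonic endoderm genes Gata4, Gata6, Sox7 and Dab2. All groups were mouse R1 embryonic stem cells with the genotype label WT, grown on gelatin with LIF and then kept in suspension without LIF for 6 days. They differed in the hairpin: sh-Pfkp, against the glycolytic enzyme phosphofructokinase of the platelet type, sh-Lin41, against the RNA-binding TRIM-NHL protein encoded by Trim71, and the control hairpin sh-ctrl, with 3 libraries each. With no second hairpin and no rescue in the labels, the loss of the target and any side effect of its hairpin cannot be told apart. Whether the replicates were separate cultures is not stated, and p-values then cover only library-to-library spread, possibly technical.

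Mesoderm and definitive endoderm arise together at the primitive streak. NODAL and WNT signals there switch on Eomes, T and Mixl1. Eomes and T encode T-box transcription factors, and Eomes acts early in the choice between mesoderm and endoderm. Foxa2 and Sox17, a forkhead and an SRY-box factor, mark definitive endoderm. Gata6, Gata4, Sox7, Sox17 and the endocytic adaptor Dab2 mark the separate extraembryonic endoderm, which in embryoid bodies forms an outer layer around a pluripotent core. Hand1 encodes a basic helix-loop-helix factor of lateral and extraembryonic mesoderm and of trophoblast giant cells. Eomes is used by trophoblast stem cells too.

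Levels were read as CPM, deposited read counts scaled to a common library size, from totals of 15495194 to 20607683 counts per library. Each targeted gene was lowest in its own knockdown. Pfkp lay between 101.2 and 104.9 CPM in sh-Pfkp, between 221.8 and 232.6 CPM in sh-Lin41 and between 245.0 and 248.3 CPM in sh-ctrl. Trim71 lay between 347.2 and 359.9 CPM in sh-Pfkp, between 155.9 and 165.1 CPM in sh-Lin41 and between 263.7 and 273.0 CPM in sh-ctrl. Most genes of the pluripotent state were abundant in every group, with Nanog at 554.6 ± 5.79, 707.3 ± 3.82 and 489.0 ± 5.35 CPM (SD, n = 3) in sh-Pfkp, sh-Lin41 and sh-ctrl. The founder factors were scarce beside them.

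Compared per transcript length, as the deposited FPKM, Eomes led the set in every group. In sh-ctrl, Eomes had 4.28 ± 0.152 FPKM, Gata4 1.14 ± 0.336 FPKM and Gata6 0.573 ± 0.50 FPKM (SD, n = 3 each). Sox7 followed at 0.517 ± 0.142 FPKM, Hand1 at 0.397 ± 0.133 FPKM and Dab2 at 0.197 ± 0.0681 FPKM. Mixl1 had 0.18 ± 0.0755 FPKM, T 0.173 ± 0.0862 FPKM, Sox17 0.173 ± 0.162 FPKM and Foxa2 0.010 ± 0.0173 FPKM. The libraries of Eomes did not overlap with those of Gata4, nor Hand1 with Dab2, nor Sox17 with Foxa2. All other neighbours in this order overlapped. Eomes was above 62.0% of all listed genes in sh-ctrl and Foxa2 above 26.7%. A mean under 1 FPKM was found for 9 members in sh-Pfkp, 8 in sh-Lin41 and 8 in sh-ctrl, a range that held 51.7%, 50.9% and 50.7% of all listed genes in the same groups.

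**Figure D1:**
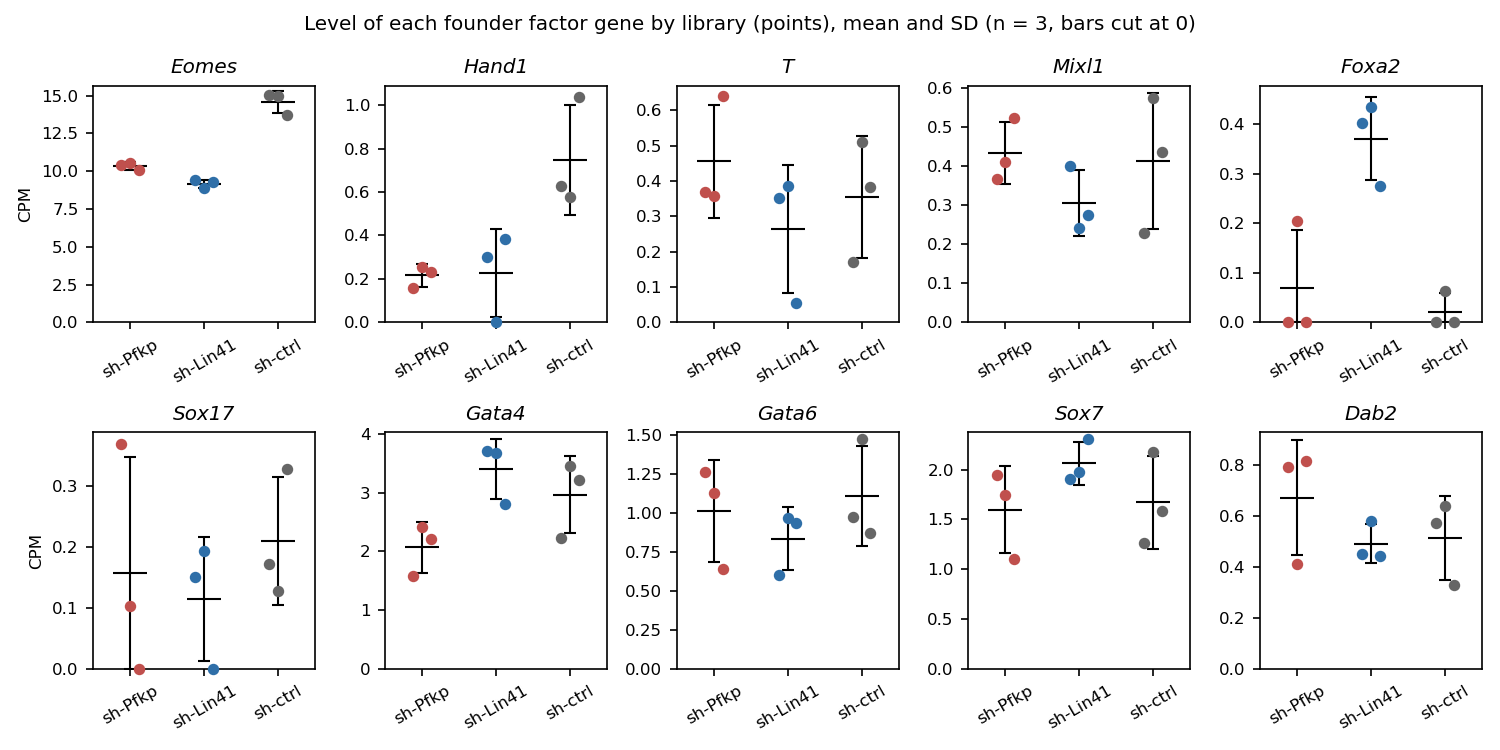
Level of the 10 founder factor genes in CPM (linear axis from 0, a scale of its own for each gene) in sh-Pfkp, sh-Lin41 and sh-ctrl, with 1 point per library, a horizontal line at the mean and bars of 1 SD (n = 3) cut at 0. The Eomes and Hand1 points of both knockdowns lie under all 3 control points, Foxa2 is highest in the 3 sh-Lin41 libraries, and every gene other than Eomes and Gata4 stays under 2.5 CPM.

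The test was edgeR's quasi-likelihood fit over all 9 libraries, and a gene was called at a Benjamini-Hochberg adjusted p under 0.05 over the 13158 genes that passed a filter on low counts. The filter kept 6 members, Eomes, Hand1, Gata4, Gata6, Sox7 and Dab2. T, Mixl1, Sox17 and Foxa2 were below it and are described by their counts, with exact 95% intervals that cover counting error only. In sh-Pfkp against sh-ctrl, 3 members were called, all lower: Eomes, Hand1 and Gata4. Across all tested genes, 56.6% were called in that comparison, 28.3% higher and 28.3% lower. In sh-Lin41 against sh-ctrl, Eomes and Hand1 were called, both lower, against 54.3% of all tested genes, 26.9% higher and 27.3% lower. A called state is thus no mark of the set. Called genes had a median absolute log2 fold change of 0.33 in sh-Pfkp and 0.30 in sh-Lin41, smaller than the Eomes changes given next. That median covers genes of every level, and abundant genes were called at small changes, such as Esrrb at -0.04 in sh-Pfkp. Eomes was not compared with called genes of its own level. Both comparisons share the 3 control libraries. Groups that do not overlap in CPM were found for 61.0% of tested genes in sh-Pfkp against sh-ctrl, 30.8% in the lower direction, and for 59.0% in sh-Lin41 against sh-ctrl, 29.7% in the lower direction.

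Eomes (ENSMUSG00000032446) was the only member with more than 100 counts in every library. Its RefSeq promoter, shown because Eomes carries the best-supported change in the set, spans chr9:118477939-118478238 on the plus strand (GRCm38.p6), from 250 bases before to 50 bases after the annotated start. The capitals mark CpG dinucleotides, the sites of DNA methylation.
Eomes: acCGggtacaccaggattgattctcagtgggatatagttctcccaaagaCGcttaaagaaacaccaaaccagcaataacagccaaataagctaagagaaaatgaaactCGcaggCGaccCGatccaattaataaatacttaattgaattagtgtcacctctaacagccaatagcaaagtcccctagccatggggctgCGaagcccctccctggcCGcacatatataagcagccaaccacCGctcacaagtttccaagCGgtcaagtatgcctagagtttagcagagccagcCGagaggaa
It holds 10 CpG, and 56.5% of 32851 RefSeq promoters of that length hold fewer.

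Eomes had 198, 206 and 173 counts in sh-Pfkp, 187, 184 and 168 counts in sh-Lin41, and 263, 234 and 252 counts in sh-ctrl. Scaled for library size these were 10.4, 10.6 and 10.1 CPM in sh-Pfkp, 9.39, 8.88 and 9.25 CPM in sh-Lin41, and 15.0, 15.0 and 13.7 CPM in sh-ctrl. Every library of both knockdowns was under every control library, and the spread within a group was small beside the gap. In this bulk RNA, fewer Eomes-expressing cells and less Eomes RNA per cell cannot be told apart. The mean was 10.4 ± 0.257 CPM in sh-Pfkp and 14.6 ± 0.727 CPM in sh-ctrl (SD, n = 3 each), a log2 fold change of -0.49 (SE 0.0901, adjusted p = 2.45e-05). In sh-Lin41 it was 9.17 ± 0.266 CPM, a log2 fold change of -0.67 against sh-ctrl (SE 0.0910, adjusted p = 2.09e-07). Eomes was called lower in both comparisons under every other tool, scaling and filter tried and with any 1 library left out. It did not reach a minimum fold of 2 in either. The sh-Pfkp libraries all lay above the sh-Lin41 libraries, but this gap did not pass the test, with a log2 fold change of 0.18 for sh-Pfkp against sh-Lin41 (SE 0.0946, adjusted p = 0.115).

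Hand1 (ENSMUSG00000037335) had fewer counts and a larger fall. It had 3, 5 and 4 counts in sh-Pfkp, 6, 0 and 7 counts in sh-Lin41, and 11, 9 and 19 counts in sh-ctrl. Every knockdown library was below every control library. For sh-Lin41 replicate 2, at 0 counts, a fixed floor of 3 counts stands for the limit of detection and is not an exact interval. The floor replaced no value, and the sums and the fit below use the 0 counts. The sums of 12 counts in sh-Pfkp and 39 in sh-ctrl gave a ratio per library size of 0.284 (0.136 to 0.554), and the 13 counts in sh-Lin41 a ratio of 0.292 (0.143 to 0.558). The fitted log2 fold changes were -1.78 in sh-Pfkp (SE 0.567, adjusted p = 0.00831) and -1.74 in sh-Lin41 (SE 0.556, adjusted p = 0.00898). Hand1 passed the filter on low counts through its control libraries alone, and with no filter the adjusted p was 0.00607 in sh-Pfkp and 0.00704 in sh-Lin41. Without sh-ctrl replicate 3, its highest library, the adjusted p was 0.0743 in sh-Pfkp and 0.0808 in sh-Lin41, and without sh-Lin41 replicate 2, its library at 0 counts, the sh-Lin41 log2 fold change was -1.13 with an adjusted p of 0.0708. Over the libraries left out in turn, the log2 fold change was -1.92 to -1.45 in sh-Pfkp and -2.30 to -1.13 in sh-Lin41.

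Hand1 and Eomes are also trophoblast genes, so the other trophoblast markers stand beside them. Of 13 such markers, 4 were tested, with 1 called higher and 2 lower in sh-Pfkp and 4 lower in sh-Lin41. The trophoblast factor Ascl2 was lower in both knockdowns, at 1.01 ± 0.237 CPM in sh-Pfkp, 0.593 ± 0.140 CPM in sh-Lin41 and 1.93 ± 0.491 CPM in sh-ctrl (SD, n = 3), with adjusted p = 0.00710 in sh-Pfkp (0.0741 without control library 2 and 0.0525 without sh-Pfkp replicate 1) and 3.64e-05 in sh-Lin41. The keratin gene Krt18 was called lower as well, at 2.27 ± 0.328, 1.77 ± 0.681 and 3.78 ± 0.830 CPM in sh-Pfkp, sh-Lin41 and sh-ctrl, although its adjusted p in sh-Pfkp was 0.0508 without control library 1. Tfap2c, a factor of trophoblast and germ cells, rose in sh-Pfkp at 51.4 ± 2.07 CPM and fell in sh-Lin41 at 32.7 ± 1.38 CPM, against 39.7 ± 3.02 CPM in sh-ctrl. The summed level of the 13 markers was 55.9 to 59.1 CPM in sh-Pfkp, 35.6 to 37.9 CPM in sh-Lin41 and 46.2 to 51.0 CPM in sh-ctrl, and most of it was Tfap2c. The giant cell hormone genes Prl3d1 and Prl2c2 had 0 counts in all 9 libraries. Elf5, Plac1 and Tpbpa had 7, 5 and 1 counts summed over the same libraries. The part of trophoblast cells in the Hand1 and Eomes values was not tested.

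T (ENSMUSG00000062327), also called Brachyury, the T-box factor of nascent mesoderm, was nearly silent in every group. Its RefSeq promoter lies at chr17:8434173-8434472 on the plus strand (GRCm38.p6) and is shown because T is a known direct target of WNT signalling and stayed near 0 here. The capitals again mark CpG.
T: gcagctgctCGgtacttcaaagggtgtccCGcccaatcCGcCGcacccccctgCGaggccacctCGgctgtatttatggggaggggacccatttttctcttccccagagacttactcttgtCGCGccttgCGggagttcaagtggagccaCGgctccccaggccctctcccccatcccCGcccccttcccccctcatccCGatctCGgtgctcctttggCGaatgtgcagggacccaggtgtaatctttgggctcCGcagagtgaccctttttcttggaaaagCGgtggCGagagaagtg
It holds 17 CpG, more than 68.6% of the promoters in the table, and 1 match to CTTTGAA, a TCF/LEF motif searched on both strands that 5.14% of all promoters hold. A match is not a binding site.

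T had 7, 7 and 11 counts in sh-Pfkp, 7, 8 and 1 counts in sh-Lin41, and 3, 8 and 7 counts in sh-ctrl. The groups overlapped. The summed counts were 25 in sh-Pfkp and 18 in sh-ctrl, a ratio per library size of 1.28 (0.673 to 2.5), and 16 in sh-Lin41, a ratio of 0.778 (0.371 to 1.62). Exact two-sided permutation tests on log2 CPM gave p = 0.6 in each comparison with sh-ctrl, where 3 libraries against 3 cannot go below 0.1. These intervals include 1 in both comparisons, and they do not exclude a 2-fold rise in sh-Pfkp or a 2-fold fall in sh-Lin41.

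Mixl1 (ENSMUSG00000026497), the homeobox gene of the streak, was as scarce as T. It had 7, 8 and 9 counts in sh-Pfkp, 8, 5 and 5 counts in sh-Lin41, and 4, 9 and 8 counts in sh-ctrl. These groups overlapped, and the ratios to sh-ctrl were 1.06 (0.563 to 1.99) in sh-Pfkp and 0.750 (0.377 to 1.48) in sh-Lin41.

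Foxa2 (ENSMUSG00000037025) showed the widest relative difference between groups of any member, on few counts. RefSeq gives it 3 starts, and the promoter with the most CpG is shown, at chr2:148045899-148046198 on the minus strand (GRCm38.p6), with CpG in capitals.
Foxa2: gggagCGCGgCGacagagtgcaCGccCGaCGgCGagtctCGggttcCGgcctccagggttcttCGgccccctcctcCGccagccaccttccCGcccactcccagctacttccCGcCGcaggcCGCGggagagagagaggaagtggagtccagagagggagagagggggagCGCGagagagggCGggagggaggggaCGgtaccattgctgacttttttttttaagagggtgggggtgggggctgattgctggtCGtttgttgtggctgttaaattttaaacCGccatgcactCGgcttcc
It holds 23 CpG, more than 78.5% of RefSeq promoters, and no match to the T-box, GATA, SOX, FOX, TCF/LEF or TATA letters searched. The Foxa2 promoter at chr2:148045415-148045714, not shown, holds 1 GATA match and 1 TATA match, letters that 11.2% and 13.6% of all promoters hold.

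Foxa2 had 0, 4 and 0 counts in sh-Pfkp, 8, 9 and 5 counts in sh-Lin41, and 0, 1 and 0 counts in sh-ctrl. Every sh-Lin41 library was above every library of the other groups. The sums of 22 counts in sh-Lin41 and 1 in sh-ctrl gave a ratio per library size of 19.2 with a wide counting interval (3.11 to 794), and an exact permutation p of 0.1, the smallest that 3 libraries against 3 allow. Among tested genes, 59.0% had groups that do not overlap in this comparison. Foxa2 was below the filter of the edgeR fit. In the edgeR fit with no filter it was called higher in sh-Lin41, with adjusted p = 0.00272, where 39.9% of 18039 genes were called. The authors' deposited table gives a log2 ratio of 4.22 and an FDR of 0.0138, where 24.7% of 22322 genes had an FDR under 0.05. DESeq2 gave Foxa2 a log2 fold change of 4.14 in this comparison, without an adjusted p. The sh-Pfkp counts, 4 in all and in a single library, gave a ratio to sh-ctrl of 3.70 (0.366 to 182). For sh-Pfkp against sh-Lin41 the ratio was 0.192 (0.0481 to 0.565), and the fit with no filter gave adjusted p = 0.0294, while DESeq2 gave 0.107. The level stayed low in sh-Lin41, at 0.187 ± 0.0493 FPKM (SD, n = 3), close to the level of Dab2 and T in sh-ctrl.

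Sox17 (ENSMUSG00000025902), which marks both kinds of endoderm, was at the edge of detection. It had 7, 2 and 0 counts in sh-Pfkp, 3, 4 and 0 counts in sh-Lin41, and 3, 2 and 6 counts in sh-ctrl. The groups overlapped, with ratios to sh-ctrl of 0.756 (0.277 to 2.01) in sh-Pfkp and 0.557 (0.183 to 1.57) in sh-Lin41. The high sh-Lin41 counts of Foxa2 had no counterpart in Sox17, whose sums were 9, 7 and 11 counts in sh-Pfkp, sh-Lin41 and sh-ctrl. At so few counts the order of the Sox17 groups cannot be told.

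Of the extraembryonic endoderm genes, Gata4 (ENSMUSG00000021944), a zinc finger factor of that lineage and of heart mesoderm, was the only one called. It had 30, 47 and 38 counts in sh-Pfkp, 74, 76 and 51 counts in sh-Lin41, and 39, 54 and 59 counts in sh-ctrl. These were 1.58, 2.41 and 2.21 CPM in sh-Pfkp, 3.72, 3.67 and 2.81 CPM in sh-Lin41, and 2.23, 3.45 and 3.22 CPM in sh-ctrl. The sh-Pfkp libraries were all under the sh-Lin41 libraries, while each knockdown overlapped with sh-ctrl. The mean of 2.07 ± 0.434 CPM in sh-Pfkp and 2.97 ± 0.648 CPM in sh-ctrl (SD, n = 3 each) gave a log2 fold change of -0.52 (SE 0.214, adjusted p = 0.0399). That call was lost with DESeq2 (adjusted p = 0.123), on FPKM (0.123), with either the second (0.164) or the third control library left out (0.132), and with the first (0.199) or the third sh-Pfkp library left out (0.0543), and the authors' deposited table gives an FDR of 0.112. In sh-Lin41 the mean was 3.40 ± 0.510 CPM, with a log2 fold change of 0.20 against sh-ctrl that did not pass the test (SE 0.195, adjusted p = 0.392).

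The direct comparison of the knockdowns separated them at Gata4 more firmly than either did from control. The log2 fold change of sh-Pfkp against sh-Lin41 was -0.72 (SE 0.205, adjusted p = 0.00341), a ratio of summed counts of 0.604 (0.476 to 0.764). Gata4 was the only 1 of the 6 tested members called in this comparison, where 55.1% of all tested genes were called, 27.4% higher and 27.8% lower, and where 59.8% had groups that do not overlap, 30.4% in the lower direction. It was called in the same direction with any 1 library left out and with DESeq2 (adjusted p = 0.0225), but not on FPKM (adjusted p = 0.0729 and 0.0738 with pseudocounts of 1 and 0.1).

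Gata6 (ENSMUSG00000005836), which acts upstream in extraembryonic endoderm, was not called in any comparison. It had 24, 22 and 11 counts in sh-Pfkp, 12, 20 and 17 counts in sh-Lin41, and 17, 23 and 16 counts in sh-ctrl. The groups overlapped, and the log2 fold changes were -0.10 in sh-Pfkp (SE 0.330, adjusted p = 0.821) and -0.39 in sh-Lin41 (SE 0.339, adjusted p = 0.349). The counting interval of the ratio was 0.639 to 1.38 in sh-Pfkp and 0.511 to 1.14 in sh-Lin41.

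Sox7 (ENSMUSG00000063060), an SRY-box factor of parietal endoderm and of endothelium, had 37, 34 and 19 counts in sh-Pfkp, 38, 41 and 42 counts in sh-Lin41, and 22, 34 and 29 counts in sh-ctrl. The sh-Lin41 libraries lay close together and within reach of the highest control. Its log2 fold changes were -0.04 in sh-Pfkp (SE 0.260, adjusted p = 0.908) and 0.31 in sh-Lin41 (SE 0.247, adjusted p = 0.293). Dab2 (ENSMUSG00000022150) had 15, 8 and 14 counts in sh-Pfkp, 9, 12 and 8 counts in sh-Lin41, and 10, 10 and 6 counts in sh-ctrl. Its groups overlapped as well, with log2 fold changes of 0.39 in sh-Pfkp (SE 0.427, adjusted p = 0.452) and -0.04 in sh-Lin41 (SE 0.449, adjusted p = 0.949). With SE of this size, an estimate of 1.5-fold for Dab2 or Gata6 would have missed the threshold.

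**Figure D2:**
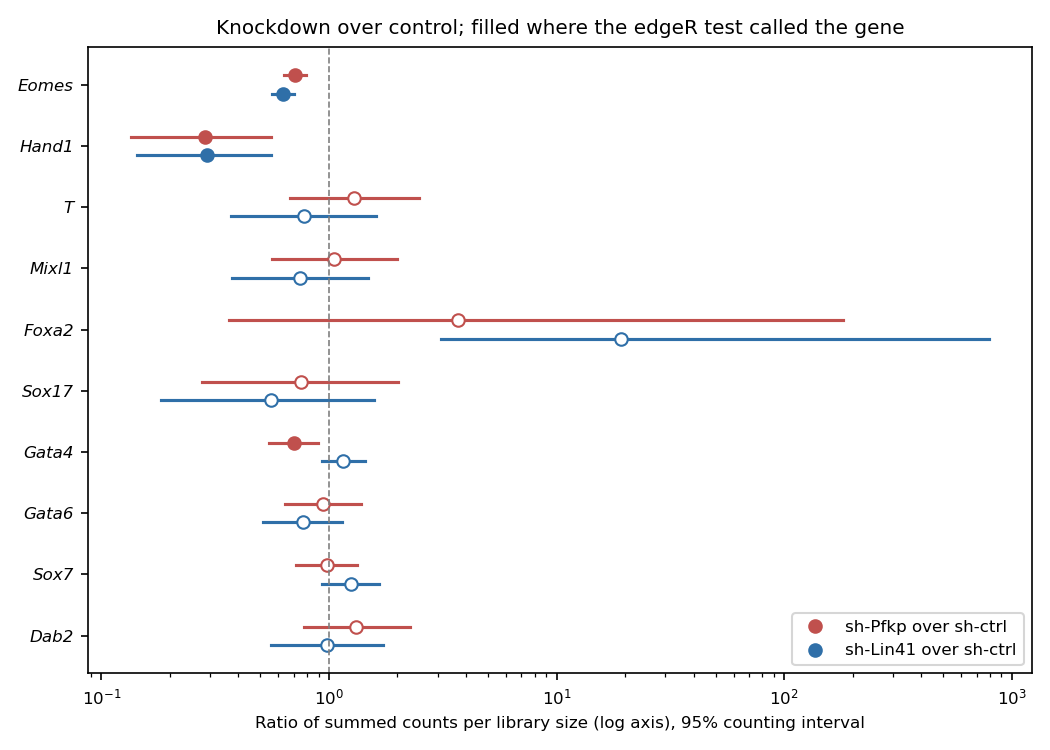
Ratio of summed counts per library size, sh-Pfkp over sh-ctrl and sh-Lin41 over sh-ctrl, for each of the 10 genes on a log axis, with bars for the exact 95% counting interval, which leaves out the spread between libraries. Filled points were called by the edgeR fit, namely Eomes and Hand1 in both knockdowns and Gata4 in sh-Pfkp; T, Mixl1, Foxa2 and Sox17 were below its filter and are open.

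The deposited FPKM of some members did not follow their counts. FPKM divides by an effective transcript length, which can differ between libraries when reads are shared out among isoforms. Eomes kept 0.280 to 0.300 FPKM per CPM over the 9 libraries, Sox7 0.298 to 0.310 and Mixl1 0.414 to 0.456. T had 0.733 to 0.780 FPKM per CPM in sh-Pfkp, 0.492 to 0.654 in sh-Lin41 and 0.466 to 0.498 in sh-ctrl, so that all sh-Pfkp libraries were credited with more FPKM per read. The authors' deposited table accordingly lists T with a log2 ratio of 1.00 in sh-Pfkp, at an FDR of 0.709, on 25 counts against 18. Among the tested genes with counts in all 6 libraries, groups that lay apart in this quantity by at least 1.5-fold were rare, 37 of 13101 (0.282%), although T itself lies below that filter. Gata6 had 0.297 to 0.315 FPKM per CPM in 8 libraries and 0.782 in sh-ctrl replicate 2, which turned 23 counts into 1.15 FPKM. The log2 ratios of -0.92 in sh-Pfkp and -1.14 in sh-Lin41 that the authors' deposited table gives for Gata6 include that library, and neither passed there (FDR 0.869 and 0.535). The other control libraries had 0.30 and 0.27 FPKM, beside means of 0.303 FPKM in sh-Pfkp and 0.26 FPKM in sh-Lin41. GENCODE M21 annotates 3 transcripts of T, of 681 to 2046 bases, and 6 of Gata6, of 428 to 3784 bases. Among the genes with a steady ratio, Sox7 and Mixl1 have a single transcript, but Eomes has 3 (1647 to 3560 bases) and so does Hand1 (354 to 1904 bases), whose ratio was 0.519 to 0.570. Isoform use was not tested.

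**Figure D3:**
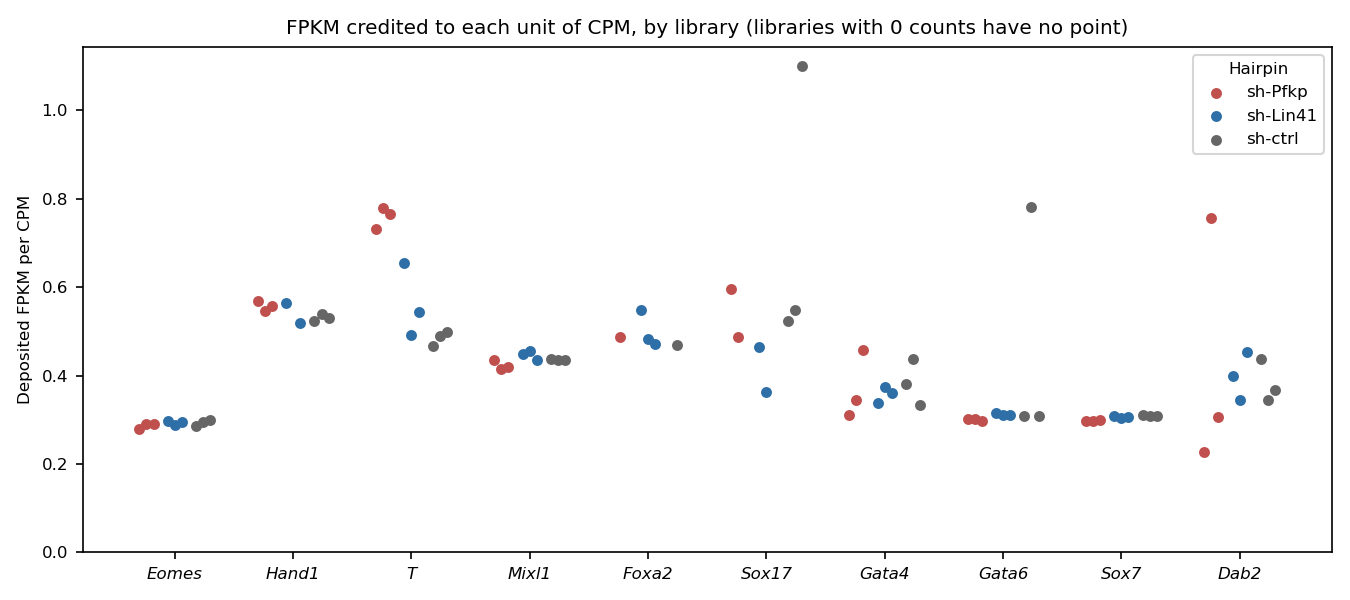
Deposited FPKM per unit of CPM (linear axis from 0) for each of the 10 genes, with 1 point per library that had counts, in sh-Pfkp, sh-Lin41 and sh-ctrl. T stands higher in the 3 sh-Pfkp libraries (0.733 to 0.780) than in sh-ctrl (0.466 to 0.498), and single libraries stand apart for Gata6 (0.782), Sox17 (1.10) and Dab2 (0.756).

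The signals above the founder factors were read only from RNA of pathway genes, and signal activity was not measured. The list of 29 pathway genes covers NODAL, WNT and BMP signalling and holds the FGF genes Fgf4, Fgfr1 and Fgfr2 as well. All 29 were tested, with 11 called higher and 8 lower in sh-Pfkp, and 10 higher and 9 lower in sh-Lin41. The median log2 fold changes were -0.01 and 0.04, beside -0.00500 and 0.00428 over all tested genes. The count of 11 was 7 under upper quartile scaling, with DESeq2, on FPKM and without sh-Pfkp replicate 1. Nodal itself, the ligand that induces Eomes, had 34.8 ± 0.832, 36.5 ± 1.56 and 35.4 ± 0.757 CPM (SD, n = 3) in sh-Pfkp, sh-Lin41 and sh-ctrl, and was not called in either comparison. Tdgf1, the NODAL co-receptor, fell to 551.4 ± 10.4 CPM in sh-Pfkp against 984.4 ± 2.39 CPM in sh-ctrl, a log2 fold change of -0.84 (SE 0.0177, adjusted p = 4.84e-27). It had 1010 ± 15.7 CPM in sh-Lin41. Lefty2, a secreted NODAL inhibitor that NODAL signalling itself induces, fell in both knockdowns, to 42.8 ± 0.258 CPM in sh-Pfkp and 60.5 ± 2.57 CPM in sh-Lin41 against 113.2 ± 2.54 CPM in sh-ctrl. Its neighbour in function Lefty1 had 18.9 ± 1.86, 25.8 ± 0.663 and 48.1 ± 1.81 CPM in the same groups, called lower in both. Bmpr2, a BMP receptor, rose in sh-Lin41 at 86.9 ± 2.86 CPM against 68.5 ± 0.951 CPM in sh-ctrl (log2 fold change 0.34, SE 0.0365, adjusted p = 1.52e-09). It had 64.1 ± 0.523 CPM in sh-Pfkp, a log2 fold change of -0.10 whose call (adjusted p = 0.0339) was lost with DESeq2 (0.154), on FPKM and without either control library 1 or 3 or any 1 sh-Pfkp library.

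Other genes of the streak and early mesoderm moved in both directions. Of 26, 15 were tested. In sh-Pfkp 6 were called higher and 5 lower, and in sh-Lin41 5 higher and 2 lower, with median log2 fold changes of -0.10 and 0.21. The lower count in sh-Pfkp was 3 without sh-ctrl replicate 3 or sh-Pfkp replicate 2. In sh-Lin41 the lower count was 1 when control library 2, control library 3 or sh-Lin41 replicate 3 was left out, the last of which also took the higher count to 3. Cdx1, a caudal factor of the posterior streak, fell in both, to 2.37 ± 0.0998 CPM in sh-Pfkp and 2.67 ± 0.548 CPM in sh-Lin41 against 5.66 ± 0.899 CPM in sh-ctrl. Evx1, a homeobox gene of the streak, rose in sh-Pfkp at 2.39 ± 0.312 CPM against 0.558 ± 0.104 CPM in sh-ctrl (log2 fold change 2.08, SE 0.295, adjusted p = 4.27e-07), and had 0.941 ± 0.189 CPM in sh-Lin41, which did not pass (adjusted p = 0.0752). Tbx3, a T-box gene also active in naive stem cells, rose to 135.1 ± 3.86 CPM in sh-Pfkp and 185.6 ± 4.21 CPM in sh-Lin41, against 113.5 ± 0.0901 CPM in sh-ctrl. Bmp4, the BMP ligand of the posterior streak, rose in both, at 57.0 ± 4.28 CPM in sh-Pfkp and 53.9 ± 1.86 CPM in sh-Lin41, against 46.7 ± 1.47 CPM in sh-ctrl. The paraxial mesoderm gene Msgn1 had 0 counts in all 9 libraries.

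Definitive endoderm genes were called in both directions. Of 17 genes, 9 were tested, with 3 higher and 1 lower in sh-Pfkp, and 1 higher and 2 lower in sh-Lin41 (2 higher and 1 lower without sh-Lin41 replicate 1); the median log2 fold changes were 0.16 and -0.06. Otx2, a homeobox gene of anterior endoderm and of the primed epiblast, rose in sh-Pfkp at 7.40 ± 0.638 CPM against 1.86 ± 0.337 CPM in sh-ctrl (log2 fold change 1.99, SE 0.170, adjusted p = 1.32e-11). It had 1.77 ± 0.300 CPM in sh-Lin41. Hnf4a, a nuclear receptor of visceral endoderm and liver, rose in both, at 3.40 ± 0.683 CPM in sh-Pfkp (adjusted p = 0.000662) and 4.25 ± 0.214 CPM in sh-Lin41 (adjusted p = 6.36e-06), against 1.83 ± 0.554 CPM in sh-ctrl. The knockdowns were not called different at Hnf4a (adjusted p = 0.116). The hormone precursor gene Trh rose in sh-Pfkp at 293.1 ± 2.90 CPM and fell in sh-Lin41 at 209.9 ± 6.20 CPM, against 241.5 ± 4.21 CPM in sh-ctrl. Cpm, a carboxypeptidase gene, fell in sh-Pfkp at 1.68 ± 0.331 CPM against 3.49 ± 0.326 CPM in sh-ctrl, with 3.09 ± 0.754 CPM in sh-Lin41 (adjusted p = 0.434). Prdm1, a transcriptional repressor, had 6.67 ± 0.306 CPM in sh-Pfkp (adjusted p = 0.230) and fell in sh-Lin41 at 5.82 ± 0.606 CPM against 7.50 ± 0.409 CPM in sh-ctrl, a call lost with DESeq2 (adjusted p = 0.0510) and without sh-Lin41 replicate 1 (0.0726). Cer1, the secreted antagonist of anterior endoderm, had 0 counts throughout.

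Extraembryonic endoderm genes other than the members split in both knockdowns. Of 30, 17 were tested, with 8 higher and 6 lower in sh-Pfkp and 6 higher and 7 lower in sh-Lin41, at median log2 fold changes of 0.21 and 0.01. The higher count in sh-Lin41 was 2 on FPKM and 3 without sh-Lin41 replicate 3. Among genes of the basement membrane under that layer, the laminin genes Lamb1 and Lama1 fell in both knockdowns. Lamb1 had 117.1 ± 3.94 CPM in sh-Pfkp and 68.6 ± 1.62 CPM in sh-Lin41 against 170.0 ± 3.17 CPM in sh-ctrl, and Lama1 had 166.0 ± 3.38, 131.2 ± 5.35 and 214.7 ± 5.84 CPM in the same groups. Lamc1, for the laminin chain that joins them, rose in sh-Pfkp at 621.4 ± 5.27 CPM, with 555.5 ± 5.83 CPM in sh-Lin41 and 552.0 ± 7.29 CPM in sh-ctrl. The collagen gene Col4a1 rose in both, at 44.8 ± 1.75, 39.8 ± 1.5 and 35.6 ± 0.422 CPM in sh-Pfkp, sh-Lin41 and sh-ctrl, although in sh-Lin41 it was not called on FPKM. Of the nidogen genes in sh-Pfkp, Nid2 rose and Nid1 fell, at log2 fold changes of 0.21 and -0.32. Lamc1, Col4a1, Nid1 and Nid2 were named after their values were seen. Apoe, an apolipoprotein gene, rose to 279.7 ± 6.57 CPM in sh-Pfkp and 275.2 ± 6.23 CPM in sh-Lin41 against 167.3 ± 4.46 CPM in sh-ctrl. Afp, a marker of mature visceral endoderm, had 0 counts in all 9 libraries. These genes are used outside the lineage as well, and the share of cells behind each value was not measured.

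**Figure D4:**
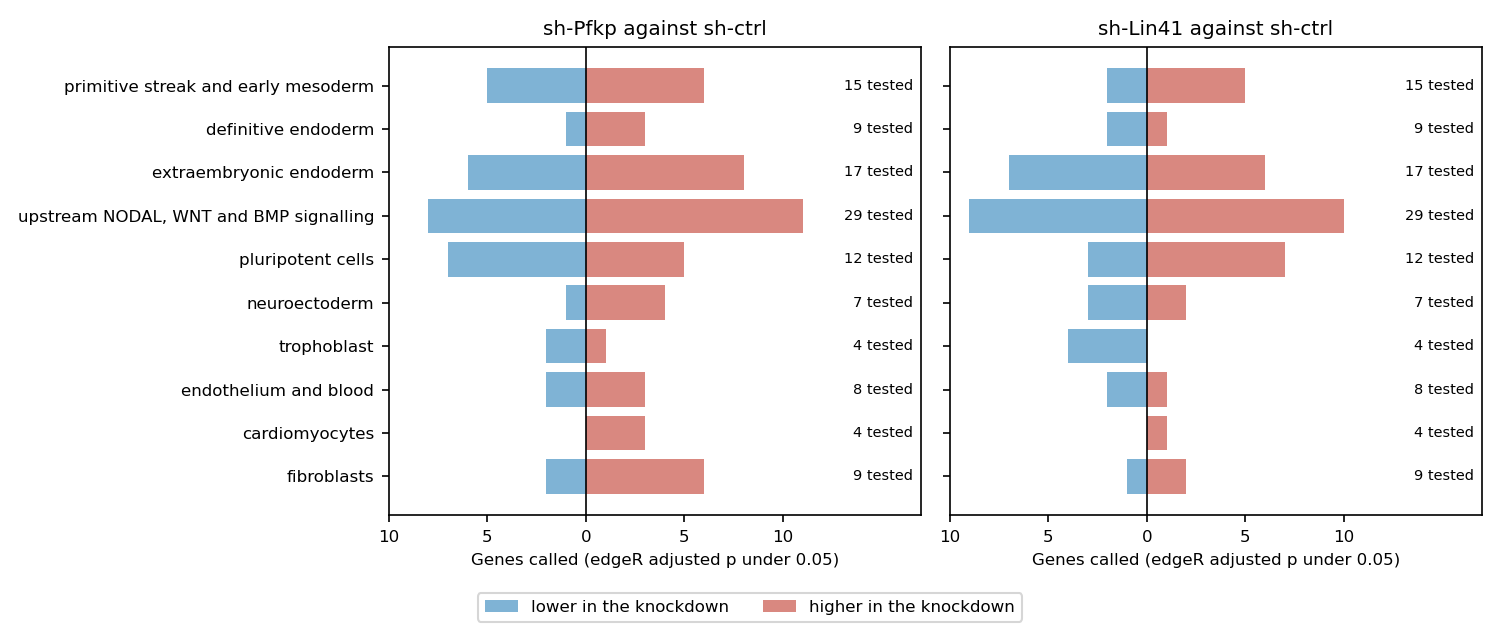
Number of genes called higher (bars to the right) and lower (bars to the left) by the edgeR fit in sh-Pfkp against sh-ctrl and sh-Lin41 against sh-ctrl, for the 3 lineage lists without the 10 members, the pathway list and 6 lists of markers of other cell types, with the number of tested genes at the right of each row. Every lineage list and the pathway list holds calls in both directions in both knockdowns.

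Markers of other cell types moved in the same libraries. All 12 pluripotency genes were tested, with 5 higher and 7 lower in sh-Pfkp (4 lower without sh-Pfkp replicate 2) and 7 higher and 3 lower in sh-Lin41. Zfp42, a gene of naive stem cells, rose in both, to 557.7 ± 16.4 CPM in sh-Pfkp and 722.1 ± 7.12 CPM in sh-Lin41, against 420.1 ± 15.8 CPM in sh-ctrl. The summed level of that list was 4737 to 4797 CPM in sh-Pfkp, 5541 to 5581 CPM in sh-Lin41 and 4718 to 4813 CPM in sh-ctrl. Of 12 neuroectoderm genes, 7 were tested, with 4 higher and 1 lower in sh-Pfkp and 2 higher and 3 lower in sh-Lin41 (1 higher without control library 1 or 2 or sh-Lin41 replicate 3). Sums there were 153.7 to 160.0, 123.4 to 126.5 and 151.5 to 152.5 CPM in sh-Pfkp, sh-Lin41 and sh-ctrl. Heart muscle genes, a list that bears on Gata4, had 4 of 12 tested, with 3 higher and none lower in sh-Pfkp. The giant sarcomere protein gene Ttn led them, at 182.1 ± 1.88 CPM against 102.7 ± 4.92 CPM in sh-ctrl. In sh-Lin41 only the calcium channel gene Ryr2 was called, higher, and it was not called on FPKM. The summed heart list was 200.7 to 204.9, 109.5 to 116.2 and 110.7 to 119.3 CPM in the same order of groups, mostly Ttn. In sh-ctrl, 9 of the 12 heart genes had a mean under 1 CPM. Actc1, Tnnt2, Tbx5 and Myl2 had 2, 4, 4 and 6 counts summed over all 9 libraries. Endothelial and blood genes, a list that bears on Sox7, had 8 of 14 tested, with 3 higher and 2 lower in sh-Pfkp and 1 higher and 2 lower in sh-Lin41. Their sums were 19.8 to 22.4, 18.3 to 19.7 and 20.8 to 22.9 CPM, and the embryonic globin genes Hbb-bh1 and Hba-x were at 0 counts throughout. Fibroblast genes had 9 of 12 tested, with 6 higher and 2 lower in sh-Pfkp and 2 higher and 1 lower in sh-Lin41 (1 higher without control library 1 or 3 or sh-Lin41 replicate 1), and sums of 1306 to 1357, 1197 to 1205 and 1143 to 1163 CPM, carried by Fn1 and Vim. The collagen gene Col1a2 stood at 5.08 ± 0.308 CPM in sh-Pfkp, 0.169 ± 0.115 CPM in sh-Lin41 and 0.0213 ± 0.0369 CPM in sh-ctrl. In the same list Pdgfrb fell in both, to 2.57 ± 0.224 CPM in sh-Pfkp and 4.63 ± 0.719 CPM in sh-Lin41, against 8.28 ± 0.380 CPM in sh-ctrl. Thy1 fell in sh-Pfkp, at 1.85 ± 0.0471 CPM against 3.70 ± 0.205 CPM in sh-ctrl. The part of any of these cell types in the founder factor values was not tested.

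Genes whose profile over the 9 libraries was closest to a member's were found by the root mean square difference of centred log2 CPM, among tested genes within 4-fold of its level. Eomes lay closest to Setd7, which encodes a lysine methyltransferase, at a distance of 0.0273, and to the adaptor gene Grb7 at 0.0443, among 6097 candidates. Hand1 lay closest to Hrc at 0.104 and Pate2 at 0.157, and Gata4 to Lgals8 at 0.107 and Brsk2 at 0.121. The nearest genes to Gata6 were Hrh1 (0.104) and Neurog3 (0.139), to Sox7 Fam222a (0.126) and Lmo2 (0.131), and to Dab2 Rps23rg1 (0.141) and Vgf (0.149). The points share their libraries, and with 54.3% to 56.6% of tested genes called, such neighbours are a description only.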

How the data were processed

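RNA-seq tables of 9 libraries were used, 3 for each hairpin group, grouped by the labels. Whole-number read counts per gene and FPKM were deposited for every library, per the file headers. For each knockdown the authors added a log2 ratio between group mean FPKM, a p-value and its FDR. Tools named in the submitters' notes were RSEM, HISAT2, StringTie 1.3.1, Bowtie2 2.2.8 and fastp 0.18.0, so the counts may be rounded estimates. Build, annotation, strand setting and test: not given in the sources used here. Unstranded counting would add reads of opposite-strand genes, which GENCODE M21 places over exons of Eomes, Gata6, Dab2 and Sox17.

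Counts were fitted with edgeR 4.0.16 in R 4.3.3 (filterByExpr, TMM, quasi-likelihood, 6 residual degrees of freedom), with Benjamini-Hochberg adjustment over 13158 genes and a threshold of 0.05. The steps were tested on simulated data. Single members were compared by exact permutation tests on log2(CPM + 0.1), with scipy 1.17.1, and by exact intervals on summed counts. Alternatives were DESeq2 1.42.0, limma 3.58.1 on log2 FPKM, other scalings and filters, 6-library fits, a replicate block, a 2-fold minimum and the omission of each library. Replicate pairs had a median chi-square of 0.661 to 0.769, against 0.455 for counting noise, and were kept as separate libraries.

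The members and gene lists were chosen with earlier results of these data known. Text names all members, the 2 closest profiles of each tested member, and up to 3 called genes per list and comparison by smallest adjusted p; of these not every gene is given, and Nodal was chosen after its values were seen. Promoters come from RefSeq (GRCm38.p6), which matched 4 of the 10 members.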

Additional observations from a re-analysis of the deposited data

Results flagged for a closer look

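Gata4 differed between the knockdowns: the log2 fold change of sh-Pfkp against sh-Lin41 was -0.72 (SE 0.205, edgeR adjusted p = 0.00341, n = 3 libraries each), with all 3 sh-Pfkp libraries under all 3 sh-Lin41 libraries. Since both are set against the same control libraries, this is the test of whether their changes from control differ. The change from sh-ctrl was -0.52 in sh-Pfkp and 0.20 in sh-Lin41, and the second did not pass the test. Between the knockdowns, 55.1% of all tested genes were called, and 59.8% had groups that do not overlap, 30.4% in the lower direction. On FPKM, limma did not call Gata4 between the knockdowns (adjusted p = 0.0729 and 0.0738 with pseudocounts of 1 and 0.1).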

How the results depend on the processing

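Eomes was called lower in both knockdowns under every alternative run except a minimum fold of 2. With that minimum, 857 genes were called in sh-Pfkp against sh-ctrl, 560 in sh-Lin41 against sh-ctrl and 591 in sh-Pfkp against sh-Lin41, and the members called were 1 (Hand1), 1 (Hand1) and 0. Leaving out each library in turn gave 1 to 3 called members in sh-Pfkp (1 without sh-ctrl replicate 3) and 1 to 2 in sh-Lin41. A filter of 1 CPM in 3 libraries left 1 called member in sh-Lin41, since Hand1 was not tested there. Between the knockdowns, the fit with no filter called 2 members, Foxa2 and Gata4, and limma on log2(FPKM + 1) or log2(FPKM + 0.1) called 0, with Gata4 at log2 differences of -0.32 and -0.62; the cause was not tested. Uncalled directions turned for Hand1 between the knockdowns (4.73e-05 and 0.12 on the FPKM scales, -0.64 to 0.53 with a library left out), for Gata6 and Sox7 in sh-Pfkp (-0.28 to 0.15 and -0.20 to 0.18 with a library left out), and for Dab2 in sh-Lin41 (0.0108 on log2(FPKM + 0.1), -0.29 to 0.14 with a library left out). On log2(FPKM + 1), calls over all genes in sh-Pfkp were 2507 higher and 3802 lower, against 3721 and 3730 on counts with TMM, and between the knockdowns 2409 higher and 3490 lower, against 3603 and 3652; on counts with upper quartile scaling they were 3141 higher and 4360 lower, and 3042 higher and 4244 lower.

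Alternatives for the list counts and list genes were chosen after seeing the data; 63 of 1080 list counts moved by over 1.5 times, and 13 of 1043 values of named list genes lost their call. Same-numbered libraries of sh-Pfkp and sh-ctrl had correlations of -0.00219, 0.105 and 0.0777 between their deviations from the group means (0.0438, 0.212 and 0.185 over genes with a mean of at least 50 counts), and not every pair passed 0.1, so the numbers were not taken as pairs. In a fit with a replicate block, 7435, 7109 and 7196 genes and 3, 2 and 1 members were called in sh-Pfkp against sh-ctrl, sh-Lin41 against sh-ctrl and sh-Pfkp against sh-Lin41. Depth limits T, Mixl1, Sox17 and Foxa2, with at most 11 counts in any library.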
